A study of Mus musculus with 1504 samples.

Results

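The semaphorins, plexins, ephrins, Eph receptors, Slits and Robos of the mouse lung vasculature are described here, as measured by SMART-seq2, which reads whole polyadenylated transcripts of single cells. Genes were chosen by symbol: every row of the deposited read table named as a semaphorin, plexin, Eph receptor, ephrin, Slit or Robo, with Sema3g left out. This gave 58 of 21948 genes, and all 58 had a read in some cell. One of them, Plxna4os1, is an antisense RNA inside Plxna4. The table holds 1504 cells sorted from the lungs of C57BL/6 mice, aged 12 to 15 weeks in the sample labels and 10 to 19 weeks in the series text. The labels name 3 reporter groups, in each of which a fluorescent protein was the only modification named: 769 cells carrying Cldn5(BAC)eGFP, which marks endothelium, 361 carrying both Pdgfrb(BAC)eGFP and NG2dsRed, and 374 carrying Pdgfrb(BAC)eGFP alone. Pdgfrb and NG2 mark mural cells, the pericytes and smooth muscle cells around vessels, but fibroblasts also carry Pdgfrb. All reporters were transgenes.

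Guidance cues were found as signals that steer growing axons, and vessels use the same families. Semaphorins are secreted or membrane ligands of the plexins, and most secreted class 3 semaphorins bind a neuropilin that pairs with a plexin. Ephrins are membrane-bound ligands of Eph receptors on touching cells, and Efnb2 and Ephb4 are the known pair of arterial and venous endothelium. Slits are secreted ligands of Robo receptors, of which Robo4 is known mainly from endothelium.

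Each cell held between 100239 and 609569 reads in genes, and the medians were 199544 in Cldn5-eGFP cells, 251780 in Mural1 with Mural2 and 368008 in Mural3. Column names gave 6 sets: EC1, EC2 and EC3 (243, 275 and 251 cells), taken as Cldn5-eGFP, and Mural1, Mural2 and Mural3 (128, 233 and 374 cells), whose names give no reporter and which are therefore called by set. No animal, plate or date was labelled, so each population counts as 1 sample, and no difference below has a replicate check or a p-value. Levels are in CPM, which is 1000000 times the reads of a gene over all gene reads summed across the cells of a set or class. Bounds in parentheses are exact 95% intervals that cover counting error only, and a share of cells means those with a read after each was thinned to 50000 reads. A gene passed the size rule with a fold of at least 4, at least 50 CPM and a read in at least 25% of the cells on the higher side, and at least 20 cells on both sides. Clustering without the guidance genes gave 8 named classes. There were 658 general capillary-like cells (Cd93, Gpihbp1 and Plvap among the leading genes) and 76 aerocyte-like cells (Ednrb, Apln and Car4), the gas-exchange capillary type. The others were 22 lymphatic-like, 70 pericyte-like, 69 smooth muscle-like and 44 chondrocyte- or perichondrial-like cells, and fibroblast-like clusters 3 and 6 with 84 and 312 cells. The chondrocyte- or perichondrial-like name was close, with 70.2% of those markers detected per cell on average against 68.2% of the fibroblast ones. That class summed to 25866 CPM over the chondrocyte or perichondrial list and 40082 CPM over the fibroblast list. Fibroblast-like cells had 113 and 69936 CPM over the same lists. All endothelial classes lay in the EC sets except for 2 general capillary-like cells in Mural1, while pericyte-like and smooth muscle-like cells came from Mural1 and Mural2 alone. Of the chondrocyte- or perichondrial-like cells 39 were in Mural1, and of cluster 3 71 were in Mural3, so either may in part be its set. A further 169 cells, cluster 4, carried epithelial and leukocyte markers beside fibroblast ones and stayed unnamed.

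Of the 58 genes, 46 reached 10 CPM in at least 1 named class. The other 12 were Efna3, Efna4, Efnb3, Epha5, Epha6, Epha8, Epha10, Plxnb3, Robo3, Sema4d, Sema4f and Slit1, and the highest level any of them had in a named class was 6.49 CPM, for Efna4 in smooth muscle-like cells. Among the 46, 9 were highest in general capillary-like cells, where 11.8% of all held-out genes at that level were. Lymphatic-like cells held the highest level of 11 (24.2% of all such genes) and aerocyte-like cells that of 4 (12.0%). Pericyte-like and smooth muscle-like cells each held that of 5 (17.8% and 11.2%). Fibroblast-like cluster 3 held 6 (6.85%), cluster 6 held 3 (4.72%) and chondrocyte- or perichondrial-like cells 3 (11.5%).

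**Figure D1:**
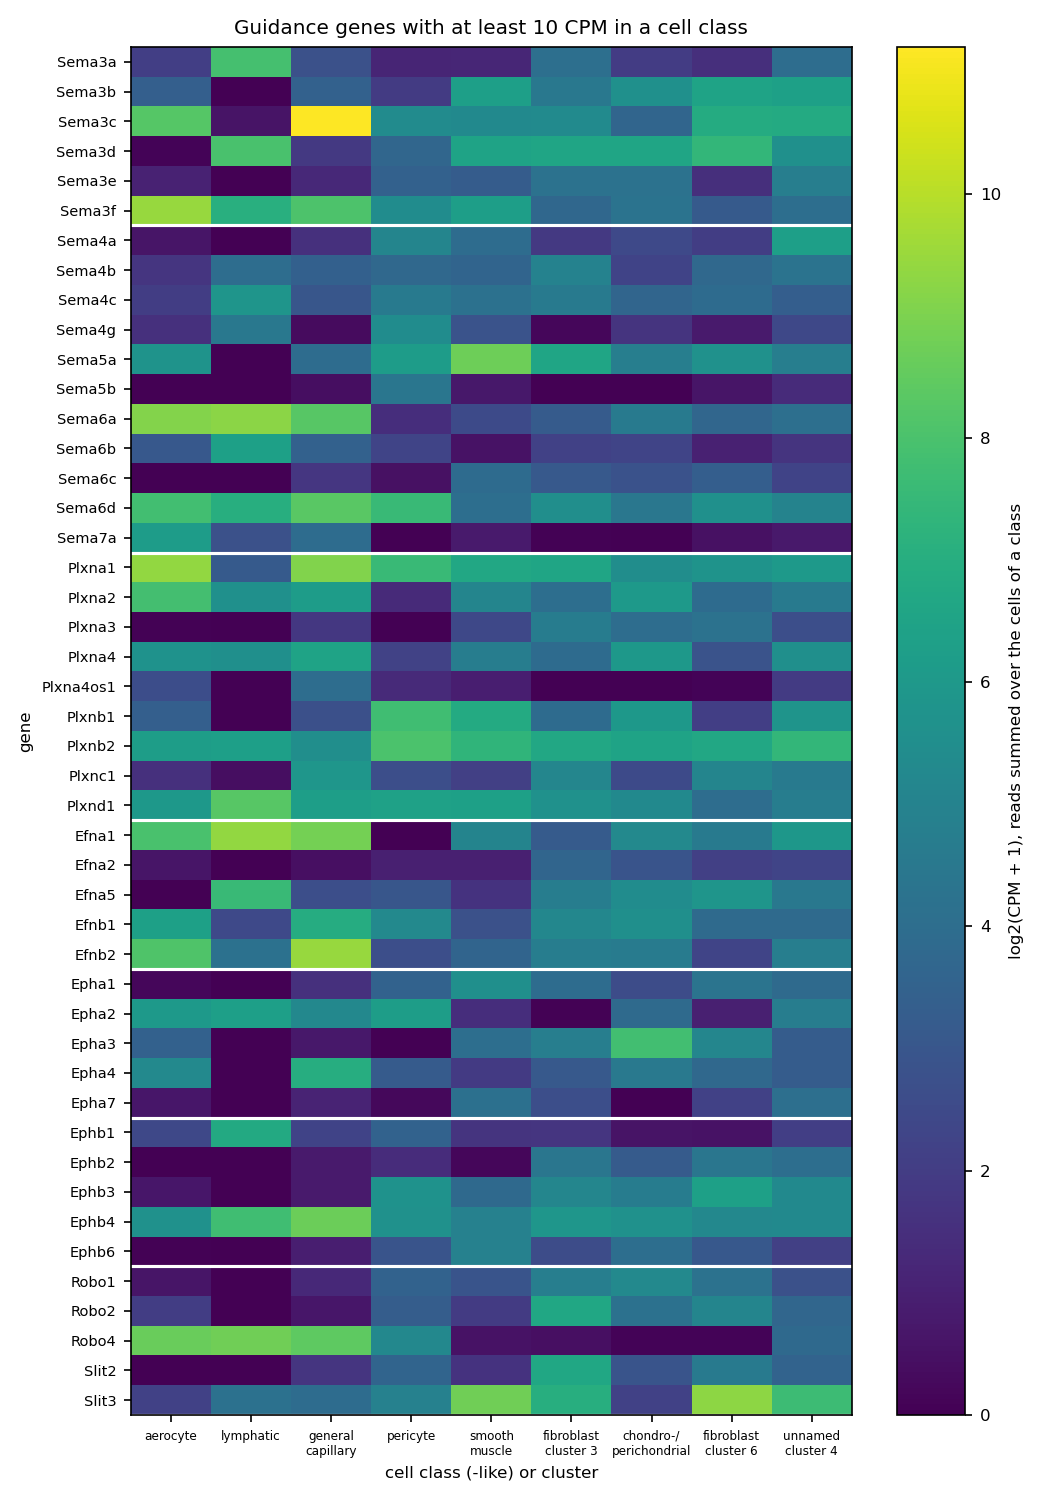
Levels of the 46 guidance genes with at least 10 CPM in a named class, as log2(CPM + 1) on a colour scale, with cell classes across and genes down, in groups by family between the white lines. Sema3c in general capillary-like cells, at 2354 CPM, is the brightest cell, and Robo4 is brightest in the 3 endothelial columns.

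The first comparison asked which guidance genes separate the endothelial reporter population from the mural sets. Over Mural1 and Mural2 together, 10 of the 58 genes passed as higher in Cldn5-eGFP cells, where 1.59% of all genes did, and 5 passed as lower, where 2.67% did. Over Mural3, 10 passed as higher (2.03% of all genes) and 4 as lower (2.57%). Both comparisons use the same Cldn5-eGFP cells. Each side mixes cell types, so a summed level cannot tell more cells of a type from more reads per cell. The mural sides are column sets and not mural cells alone. Mural1 and Mural2 held 27 and 43 pericyte-like and 16 and 53 smooth muscle-like cells, of 128 and 233. Mural3 held 71 cells of fibroblast-like cluster 3, 242 of cluster 6 and 61 of cluster 4, and no others. The classes below separate the types.

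The ligands on the endothelial side were 4 semaphorins and 3 ephrins. Sema3c, a secreted semaphorin, had 1854, 2199 and 1701 CPM in EC1, EC2 and EC3, against 29.0, 88.0 and 107 CPM in Mural1, Mural2 and Mural3. Every EC set lay above every Mural set, and the level was 29.4-fold (28.6 to 30.1) higher than in Mural1 and Mural2 and 18.0-fold (17.7 to 18.3) higher than in Mural3. The mural sets differed, and against Mural1 alone the first fold was 66.4. Sema3f, another secreted semaphorin, had 296, 284 and 402 CPM in EC1, EC2 and EC3, against 27.3, 36.8 and 7.53 CPM in Mural1, Mural2 and Mural3. It was 9.89-fold (9.55 to 10.3) and 43.6-fold (41.0 to 46.5) higher than in the mural sides in the same order. Sema6a, a transmembrane ligand of A-type plexins, had 325, 362 and 379 CPM in EC1, EC2 and EC3, against 14.4, 10.9 and 11.3 CPM in Mural1, Mural2 and Mural3. Its folds over Mural1 with Mural2 and over Mural3 were 29.1-fold (27.5 to 30.9) and 31.6-fold (30.0 to 33.2). Sema6d, of the same transmembrane class, had 289, 322 and 279.7 CPM in EC1, EC2 and EC3, against 54.1, 62.7 and 41.3 CPM in Mural1, Mural2 and Mural3. Here the mural sets kept a clear level, and the folds were 5.00-fold (4.87 to 5.14) and 7.20-fold (7.00 to 7.40).

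Efnb2, the ephrin known from arteries, had 599.7, 519 and 682 CPM in EC1, EC2 and EC3, against 39.8, 15.0 and 9.95 CPM in Mural1, Mural2 and Mural3. The EC sets stood well apart from all 3 Mural sets, with folds of 24.5-fold (23.6 to 25.6) over Mural1 and Mural2 and 60.2-fold (57.1 to 63.6) over Mural3. Within the mural side the sets differed, so that the first fold was 15.1 against Mural1 alone and 40.0 against Mural2 alone. Efna1, a membrane-anchored ligand of EphA receptors, had 406, 457 and 424 CPM in EC1, EC2 and EC3, against 31.6, 40.7 and 23.6 CPM in Mural1, Mural2 and Mural3. Its folds were 11.6-fold (11.2 to 12.0) and 18.2-fold (17.6 to 18.9). Efnb1 had 91.9, 133 and 103 CPM in EC1, EC2 and EC3, against 28.4, 15.2 and 18.0 CPM in Mural1, Mural2 and Mural3. Its fold over Mural1 and Mural2, 5.46-fold (5.21 to 5.72), fell to 3.88 without Mural2 and then missed the rule, while that over Mural3 was 6.11-fold (5.86 to 6.38).

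The receptors on the endothelial side were Robo4, Ephb4 and Plxna1. Robo4 had 348, 337 and 363 CPM in EC1, EC2 and EC3, against 6.52, 11.7 and 0.5 CPM in Mural1, Mural2 and Mural3. It was 36.0-fold (33.8 to 38.4) higher than in Mural1 and Mural2 and 699-fold (550.3 to 902) higher than in Mural3. Unnamed cluster 4 supplied many of the mural reads: without it the folds were 57.9 and 3723. With the doublet-like cells, which carry both endothelial and mural or fibroblast markers, left out, Mural3 held 3 reads of Robo4, a ratio of 15263 (5222 to 74013). Ephb4, the receptor of Efnb2, had 377, 325 and 324 CPM in EC1, EC2 and EC3, against 39.4, 44.5 and 40.7 CPM in Mural1, Mural2 and Mural3. The folds were 8.00-fold (7.75 to 8.26) and 8.37-fold (8.14 to 8.61), and the mural sets were close to one another. Plxna1, a receptor of Sema6d and of neuropilin-bound semaphorins, had 525, 535 and 543 CPM in EC1, EC2 and EC3, against 80.5, 85.4 and 62.0 CPM in Mural1, Mural2 and Mural3. Its folds were 6.41-fold (6.26 to 6.56) and 8.63-fold (8.44 to 8.83), and 970 of its exon bases overlap another gene, Gm26811, whose reads an unstranded protocol cannot tell apart.

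**Figure D2:**
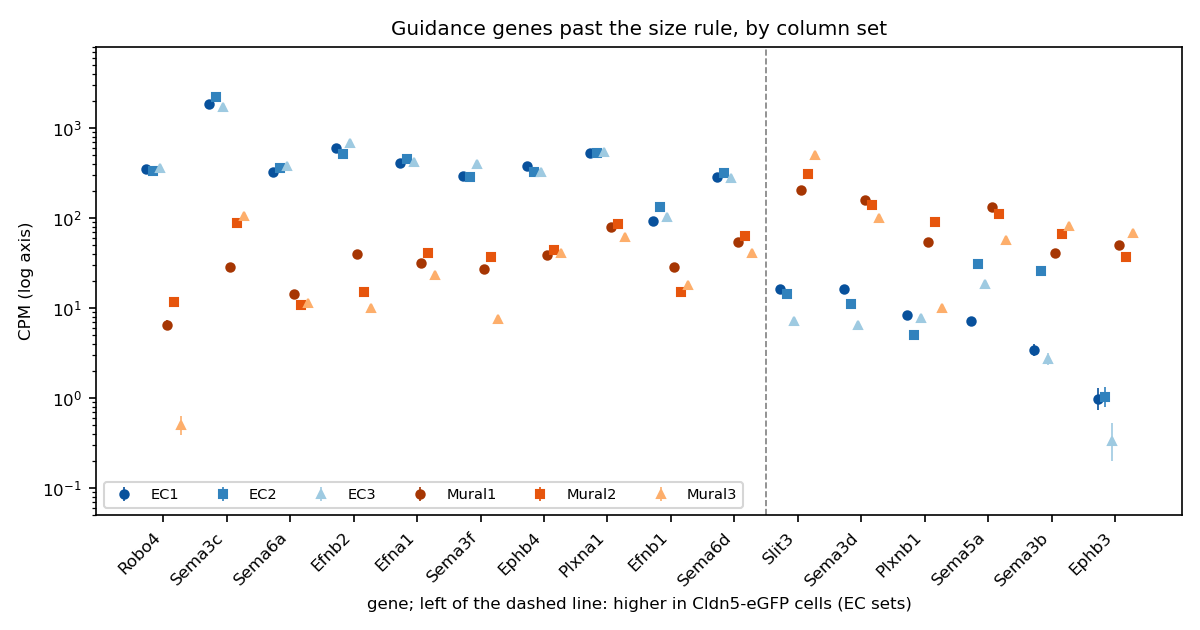
Level in CPM on a log axis of the 16 guidance genes past the size rule between Cldn5-eGFP cells and a mural side, in each of the 6 column sets, with bars for the exact 95% counting interval. For the 10 genes left of the dashed line all EC sets lie above all Mural sets, and right of it all Mural sets lie above all EC sets.

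On the side of the Mural sets stood the ligands Slit3, Sema3d, Sema3b and Sema5a and the receptors Plxnb1 and Ephb3. Slit3 had 16.4, 14.5 and 7.12 CPM in EC1, EC2 and EC3, against 206, 309 and 506 CPM in Mural1, Mural2 and Mural3. It was 21.6-fold (20.6 to 22.6) lower in Cldn5-eGFP cells than in Mural1 and Mural2 and 40.5-fold (38.7 to 42.3) lower than in Mural3. Sema3d had 16.2, 11.1 and 6.55 CPM in EC1, EC2 and EC3, against 161, 139 and 99.3 CPM in Mural1, Mural2 and Mural3, and its folds were 13.3-fold (12.7 to 14.0) and 8.98-fold (8.55 to 9.43) towards the mural sides. Sema5a, a transmembrane semaphorin, had 7.21, 31.0 and 18.6 CPM in EC1, EC2 and EC3, against 134, 111 and 57.5 CPM in Mural1, Mural2 and Mural3. It passed against Mural1 and Mural2, by 6.14-fold (5.91 to 6.39), and not against Mural3. Sema3b had 3.41, 25.6 and 2.74 CPM in EC1, EC2 and EC3, against 40.8, 66.0 and 82.7 CPM in Mural1, Mural2 and Mural3. One endothelial set, EC2, carried most of its endothelial reads. Sema3b was 5.14-fold (4.87 to 5.42) lower in Cldn5-eGFP cells than in Mural1 and Mural2. The fold was 18.5 without EC2, 3.95 without EC1, 3.68 without EC3 and 3.72 without Mural2, and the last 3 missed the rule. It also missed without unnamed cluster 4 (5.71), with the mean of the cells' own CPM and with the authors' scores (both 5.82). These folds were still past 4. Against Mural3 the fold was 7.53-fold (7.16 to 7.92) with EC2 and 27.1 without it.

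Plxnb1, a receptor of class 4 semaphorins, had 8.40, 5.03 and 7.81 CPM in EC1, EC2 and EC3, against 54.7, 89.6 and 10.1 CPM in Mural1, Mural2 and Mural3. It was 10.9-fold (10.2 to 11.6) lower in Cldn5-eGFP cells than in Mural1 and Mural2. Between the mural sides it was the 1 gene of the 58 that passed, 7.57-fold (7.14 to 8.03) higher in Mural1 and Mural2 than in Mural3, where 0.747% of all genes passed as higher and 0.146% as lower. That fold was 16.4 without unnamed cluster 4. Robo2, with 11.9 CPM in Mural1 and Mural2 against 49.3 CPM in Mural3, lay just under the level minimum of the rule, and is named because of these values. Ephb3 had 0.987, 1.04 and 0.336 CPM in EC1, EC2 and EC3, against 50.3, 37.1 and 68.8 CPM in Mural1, Mural2 and Mural3, and it passed against Mural3 alone, by 88.1-fold (74.0 to 106).

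**Figure D3:**
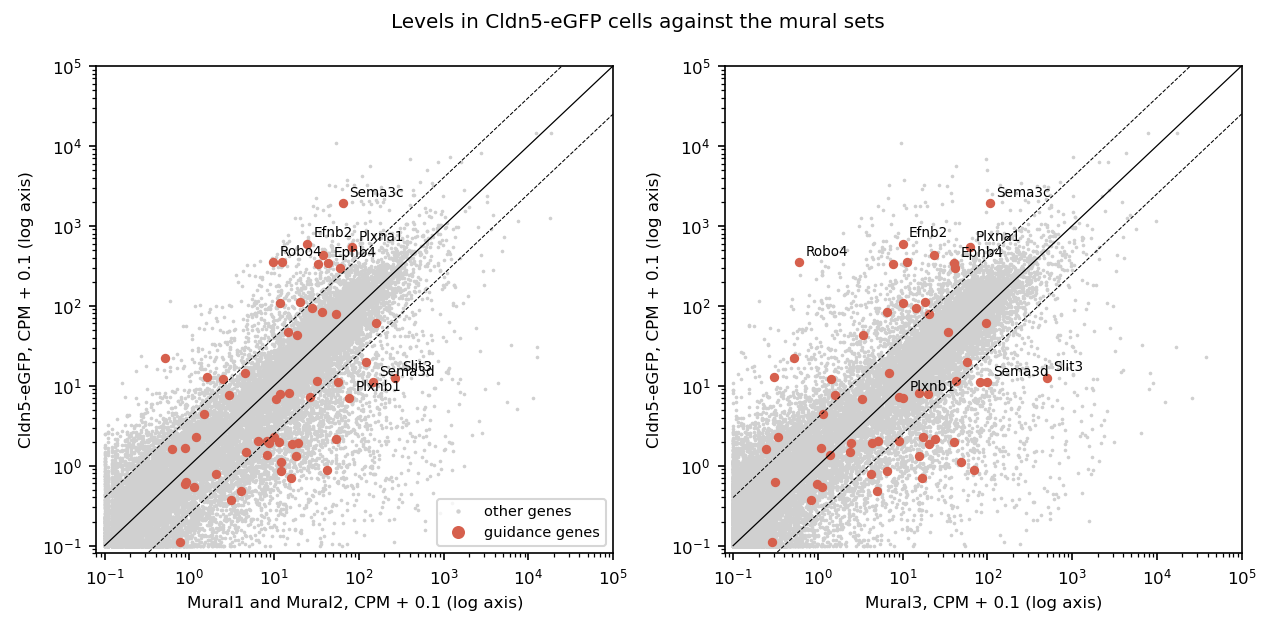
Level of every gene in Cldn5-eGFP cells (vertical) against Mural1 with Mural2 (left panel, horizontal) and against Mural3 (right panel, horizontal), in CPM + 0.1 on log axes, with the 58 guidance genes in red, equality as a solid line and 4-fold differences as dashed lines. Sema3c, Robo4, Efnb2, Ephb4 and Plxna1 lie above the upper dashed line in both panels, and Slit3 and Sema3d below the lower one.

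Over the guidance genes with at least 10 CPM on either side, the median log2 difference of Cldn5-eGFP cells was -0.0015 from Mural1 and Mural2 (40 genes), against 0.05 for all genes at that level, and 1.06 from Mural3 (37 genes), against 0.33 for all genes. Genes thus lay on both sides, and the median stood near that of all genes in the first comparison.

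Promoter sequence is shown for Robo4 and Sema3c, the genes with the largest endothelial folds of those that passed over Mural1 and Mural2, and for Slit3, with the largest mural fold there, to set their start regions side by side. Over Mural3 other genes had larger folds, Ephb3 on the mural side and Efnb2, Sema3f, Sema6a and Efna1 next to Robo4 on the endothelial side. RefSeq windows of GRCm38.p6, which run from 250 bases before to 50 after the annotated start, were found for 50 of the 58 genes. The motif CNGGAAG, a core bound by ETS factors, is in capitals, and it was searched on both strands. The 3 windows are Robo4 at chr9:37401722-37402021, Sema3c at chr5:17574566-17574865 and Slit3 at chr11:35121206-35121505, all on the plus strand. GENCODE puts the gene starts at 37401897, 17574281 and 35121224 in the same order. That of Sema3c lies before its window, so the windows depend on the annotation.
Robo4: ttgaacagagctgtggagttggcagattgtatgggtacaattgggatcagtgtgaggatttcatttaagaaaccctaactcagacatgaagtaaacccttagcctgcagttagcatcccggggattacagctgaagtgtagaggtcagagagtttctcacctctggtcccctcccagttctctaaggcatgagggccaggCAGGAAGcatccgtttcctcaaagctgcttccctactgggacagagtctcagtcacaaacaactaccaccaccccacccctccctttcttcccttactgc
Sema3c: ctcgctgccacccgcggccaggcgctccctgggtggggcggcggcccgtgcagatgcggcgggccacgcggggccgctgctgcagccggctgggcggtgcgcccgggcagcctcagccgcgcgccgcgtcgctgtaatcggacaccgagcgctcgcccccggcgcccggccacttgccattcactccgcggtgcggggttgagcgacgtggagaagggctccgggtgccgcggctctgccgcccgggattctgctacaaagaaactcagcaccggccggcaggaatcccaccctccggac
Slit3: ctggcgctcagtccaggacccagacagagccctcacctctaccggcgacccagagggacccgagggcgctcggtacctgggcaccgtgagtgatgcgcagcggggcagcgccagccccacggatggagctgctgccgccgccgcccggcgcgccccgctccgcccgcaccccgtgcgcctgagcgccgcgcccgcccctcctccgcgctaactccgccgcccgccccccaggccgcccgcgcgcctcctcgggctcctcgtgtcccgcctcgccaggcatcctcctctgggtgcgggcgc
The Robo4 window holds 1 match and the other windows none. Of all 27025 promoter windows 31.6% hold the motif, as do 14 of the 50 guidance genes with a window. Among the genes on the endothelial side of both population comparisons it was found in 4 of 7 with a window, namely Efna1, Efnb1, Ephb4 and Robo4, and among those on a mural side in 2 of 5, Plxnb1 and Sema5a. The CArG box, the motif of serum response factor, was found in 1.57% of all windows and in 2 of the 50, those of Robo1 and Sema4d. These are matches of letters in a window and not bound sites.

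Within the endothelium the capillary and lymphatic classes were compared next, over the 10972 genes held out of the clustering. Aerocyte-like cells over general capillary-like cells gave 1 guidance gene as higher (0.538% of held-out genes) and 2 as lower (0.447%). Lymphatic-like over general capillary-like cells gave 7 as higher (1.55%) and 4 as lower (1.33%). There were 7, 6 and 9 lymphatic-like cells in EC1, EC2 and EC3, so levels by set in that class rest on few cells.

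Among the ligands, Sema3c was highest in general capillary-like cells, lower in aerocyte-like cells and near 0 in lymphatic-like cells. Aerocyte-like cells had 297, 245 and 344 CPM in EC1, EC2 and EC3, lymphatic-like cells 1.67, 0 and 0 CPM in EC1, EC2 and EC3, and general capillary-like cells 2170.3, 2589 and 2291 CPM in EC1, EC2 and EC3. The classes did not overlap in any set. Sema3c was 7.66-fold (7.49 to 7.84) lower in aerocyte-like cells, with a read in 55.3% of them, against 92.2% of general capillary-like cells. In lymphatic-like cells it had 3 reads in all, which gives a ratio of 4607-fold (1577 to 22342) towards general capillary-like cells, or 2703-fold (925 to 13109) without EC3 and, with no such read left, at least 3314-fold without EC1 at a floor of 3 reads per class. Sema3f ran the other way in the capillary classes, with 693, 769 and 698 CPM in EC1, EC2 and EC3 in aerocyte-like cells, against 266, 226 and 336 CPM in EC1, EC2 and EC3 in general capillary-like cells. It was higher in aerocyte-like cells in each set, by 2.64-fold (2.59 to 2.68), which is short of the rule. Lymphatic-like cells had 131 CPM (122 to 141) of Sema3f.

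Sema7a, a semaphorin anchored to the membrane by a lipid and a ligand of Plxnc1, was the gene that passed as higher in aerocyte-like cells. It had 15.8, 82.9 and 87.3 CPM in EC1, EC2 and EC3 in aerocyte-like cells, against 11.3, 12.9 and 19.5 CPM in EC1, EC2 and EC3 in general capillary-like cells, a difference of 4.97-fold (4.65 to 5.30). The difference was seen in EC2 and EC3, while the aerocyte-like cells of EC1 lay within the general capillary-like range. Lymphatic-like cells had 5.96 CPM (4.15 to 8.29), and no pericyte-like, smooth muscle-like or fibroblast-like class reached 1 CPM. Its receptor gene Plxnc1 had 1.92 CPM in aerocyte-like cells, 0.341 CPM in lymphatic-like cells and 58.0 CPM in general capillary-like cells. The share of cells with a read of Plxnc1 was 1.32% in aerocyte-like and 11.1% in general capillary-like cells, so the difference did not pass the rule.

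Lymphatic-like cells were marked by other semaphorins. Sema3d had 399.9, 234 and 149 CPM in EC1, EC2 and EC3 in lymphatic-like cells, against 1.99, 5.50 and 0.0249 CPM in EC1, EC2 and EC3 in general capillary-like cells, a difference of 93.1-fold (82.8 to 105). Sema3a, a ligand of the receptor Nrp1, had 47.3, 190.0 and 410.2 CPM in EC1, EC2 and EC3 in lymphatic-like cells, against 7.48, 2.74 and 7.93 CPM in EC1, EC2 and EC3 in general capillary-like cells. All 3 lymphatic-like values lay above the others, though they were far apart, and the fold was 40.9-fold (37.4 to 44.7). Sema6b was 8.21-fold (7.38 to 9.12) higher, at 81.9 CPM in lymphatic-like cells against 9.98 CPM in general capillary-like cells. Sema4c, a transmembrane ligand of Plxnb2, was 8.01-fold (7.04 to 9.10) higher, at 55.9 CPM against 6.98 CPM. Without EC3, which left 13 lymphatic-like cells and so no call, Sema6b was 2.91-fold and Sema4c 3.29-fold higher, and without EC1 Sema6b was 15.2-fold higher. Sema4c also missed the rule under other scalings, the TMM and the median-ratio factors, on its level. Its folds there, 7.04 and 7.72, were still past 4. Sema3d was 249.7-fold higher without EC2 and 60.9-fold without EC1, and Sema3a 63.8-fold without EC1 and 23.3-fold without EC3. Each of these 4 genes had a read in 31.8% to 45.5% of the lymphatic-like cells.

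Sema6a and Sema6d were carried by all 3 endothelial classes. Sema6a had 552 CPM (543 to 562) in aerocyte-like, 604 CPM (584 to 624) in lymphatic-like and 317 CPM (314 to 319.7) in general capillary-like cells. Sema6d was lowest in the lymphatic-like class, with 223, 129 and 327 CPM in the same order. Neither gene passed in either comparison.

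**Figure D4:**
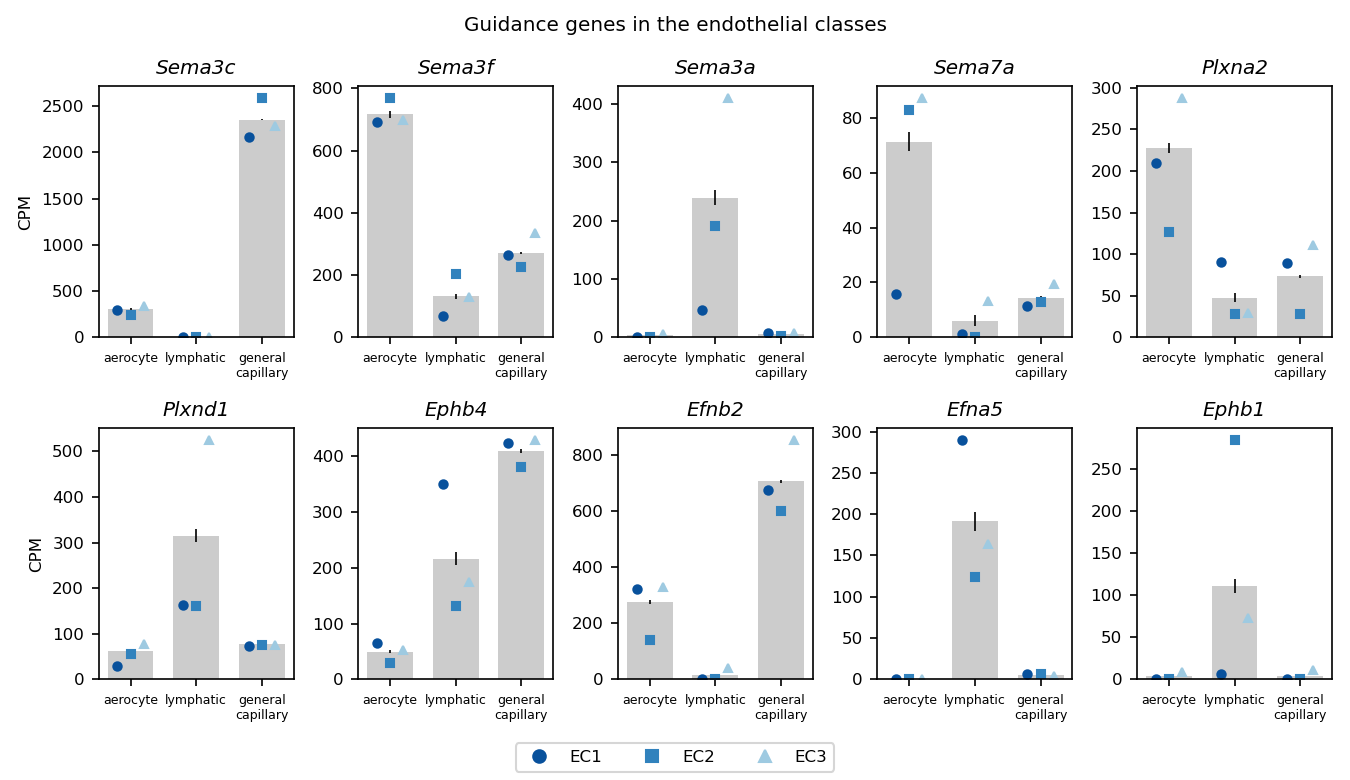
Level in CPM of 10 guidance genes in aerocyte-like, lymphatic-like and general capillary-like cells. Bars are summed reads of a class with its exact 95% counting interval, and points are the EC1, EC2 and EC3 cells of that class. Sema3c and Efnb2 are highest in general capillary-like cells, Sema3f and Plxna2 in aerocyte-like cells, and Sema3a, Plxnd1, Efna5 and Ephb1 in lymphatic-like cells.

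The plexins, as receptors, also differed by endothelial class. Plxna1 had 846, 645 and 624 CPM in EC1, EC2 and EC3 in aerocyte-like, 26.1, 0 and 0 CPM in EC1, EC2 and EC3 in lymphatic-like and 515, 551 and 566 CPM in EC1, EC2 and EC3 in general capillary-like cells. Both capillary classes were high and the lymphatic-like class near 0, with a difference of 67.8-fold (51.0 to 92.3) towards general capillary-like cells (38.6 without EC3 and, with no lymphatic-like read left, at least 755 without EC1). Plxnd1, the receptor that Sema3e binds without a neuropilin, had 164, 162 and 525 CPM in EC1, EC2 and EC3 in lymphatic-like cells, against 72.7, 75.2 and 75.8 CPM in EC1, EC2 and EC3 in general capillary-like cells. It was higher in lymphatic-like cells by 4.08-fold (3.88 to 4.29), and EC3 gave the highest value. Without EC3 the fold was 2.09, and it also missed the rule under TMM (3.58) and median-ratio factors (3.93), at Leiden resolution 0.5 (3.84) and with other genes held out of the clustering (3.83). Plxna2 had 209, 127 and 288 CPM in EC1, EC2 and EC3 in aerocyte-like cells, against 89.6, 28.2 and 111 CPM in EC1, EC2 and EC3 in general capillary-like cells. All 3 aerocyte-like values were above all 3 general capillary-like ones, but the difference of 3.11-fold (3.01 to 3.22) missed the rule. Plxna4 had 51.3, 46.3 and 90.5 CPM in aerocyte-like, lymphatic-like and general capillary-like cells. The antisense Plxna4os1 reached 15.1 CPM in general capillary-like cells. Its exons share 0 bases with those of other genes, but reads of unspliced Plxna4 cannot be told from its own without strand.

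Among the Eph-ephrin genes, 4 passed between lymphatic-like and general capillary-like cells and 1 between the capillary classes. Efnb2 had 324, 139.9 and 329 CPM in EC1, EC2 and EC3 in aerocyte-like, 0, 1.87 and 38.9 CPM in EC1, EC2 and EC3 in lymphatic-like and 673, 602 and 854 CPM in EC1, EC2 and EC3 in general capillary-like cells. It was 41.9-fold (34.4 to 51.5) lower in lymphatic-like than in general capillary-like cells (726 (249 to 3522) without EC3, from 3 reads), and 2.55-fold (2.49 to 2.62) lower in aerocyte-like cells, which did not pass. Efnb1 had 81.5 CPM in aerocyte-like, 4.60 CPM in lymphatic-like and 123 CPM in general capillary-like cells. It was 26.7-fold (18.3 to 40.5) lower in lymphatic-like cells than in general capillary-like cells, which became 17.0 without EC2 and at least 139 without EC3, at a floor of 3 reads per class. Ephb4 passed as lower in the aerocyte-like class, with 65.0, 29.5 and 53.4 CPM in EC1, EC2 and EC3, against 425, 381 and 429.6 CPM in EC1, EC2 and EC3 in general capillary-like cells, a difference of 8.30-fold (7.84 to 8.79). Lymphatic-like cells kept Ephb4 at 216 CPM (204 to 228). Both members of the known pair were thus highest in the same class, general capillary-like cells, where Efnb2 had a read in 63.1% and Ephb4 in 67.6% of cells.

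Efna5 and Ephb1 passed as higher in lymphatic-like cells. Efna5 had 289.8, 123 and 163 CPM in EC1, EC2 and EC3 in lymphatic-like cells, against 6.45, 6.25 and 3.76 CPM in EC1, EC2 and EC3 in general capillary-like cells, a difference of 34.6-fold (31.5 to 38.0). Ephb1 had 6.67, 284 and 72.6 CPM in EC1, EC2 and EC3 in lymphatic-like cells, against 0.623, 0.187 and 11.0 CPM in EC1, EC2 and EC3 in general capillary-like cells. One lymphatic-like value, that of EC1, lay below the highest general capillary-like one, and the summed fold was 28.8-fold (25.5 to 32.4), or 7.51 without EC2 and 218 without EC3. Efna1 was high in every endothelial class, with 251 CPM (245 to 257) in aerocyte-like, 658 CPM (638 to 679) in lymphatic-like and 464 CPM (460.2 to 468) in general capillary-like cells. Epha2, a receptor of Efna1, had 64.1, 79.0 and 36.8 CPM in the same classes. Its lymphatic-like reads came from 9.09% of cells. Epha4 had 37.5 CPM in aerocyte-like cells, no read in lymphatic-like cells and 127 CPM in general capillary-like cells, of which 18.1% held a read. Robo4 had 395 CPM (387 to 403) in aerocyte-like, 439 CPM (422 to 456) in lymphatic-like and 345 CPM (342 to 348) in general capillary-like cells. The Slits were low throughout the endothelium, where Slit3 reached at most 17.2 CPM, in lymphatic-like cells, from 1 of their 22 cells after thinning.

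Per kilobase of exon, which allows genes to be set against each other, Sema3c led the general capillary-like cells with 329.8 CPM per kb, followed by Efna1 with 254. In aerocyte-like cells Sema3f and Efna1 stood at 138 and 137 CPM per kb, and in lymphatic-like cells Efna1 led with 359.8. Pericyte-like cells were led by the receptor Plxnb2 with 33.3 CPM per kb. Slit3 led smooth muscle-like cells and fibroblast-like cluster 6, with 71.7 and 104 CPM per kb.

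Since Efnb2 and Ephb4 are known for arteries and veins, general capillary-like and aerocyte-like cells of the EC sets with reads of at least 3 of 8 arterial markers were set against unmarked ones. Of 732 cells, 71 were arterial-marked, 655 unmarked and 6 venous-marked, too few to use. Of the 71, 70 were general capillary-like and 1 was aerocyte-like, so most aerocyte-like cells lay on the unmarked side. Efnb2 had 696 CPM in arterial-marked cells and 633 CPM in unmarked cells, and Ephb4 had 371 and 353 CPM in the same order. The folds were 1.10-fold (1.08 to 1.12) and 1.05-fold (1.02 to 1.08). All general capillary-like cells together had 706 CPM of Efnb2 and 409 CPM of Ephb4, above the arterial-marked levels. Aerocyte-like cells had 276 CPM of Efnb2. The folds thus mix marking with class, and the part of either was not tested. Efna1 was 1.80-fold (1.76 to 1.83) higher in arterial-marked cells and Sema6d 1.70-fold (1.64 to 1.77) lower. None of the 58 genes passed, where 0.00458% of all genes passed in each direction. The marking is weak, since 63 of the 71 cells held exactly 3 markers, 222 further cells held exactly 2, and the marker Gja4 had a read in 66.9% of all 732 cells.

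General capillary-like cells were next set against pericyte-like cells, which sit on the same capillaries. Of the guidance genes 7 passed as higher in general capillary-like cells (1.54% of held-out genes) and 2 as lower (2.16%). The 7 were the ligands Sema3c, Sema3f, Sema6a, Efna1 and Efnb2 and the receptors Ephb4 and Robo4. Efna1 had no read in any of 70 pericyte-like cells and was at least 1871-fold higher in general capillary-like cells at a floor of 3 reads per class, a bound of 778 without Mural2 and of 1091 without Mural1. Sema6a was 182-fold (119 to 295) higher (107 without Mural1 and at least 531 without Mural2), and Efnb2 129-fold (102 to 167). Sema3c was 57.1-fold (52.3 to 62.4) higher, but its pericyte-like reads came almost all from Mural2, with 0.199 and 70.5 CPM in Mural1 and Mural2. The fold was 33.5 without Mural1 and, without Mural2, 11845 (2126 to 467851) from the 1 read of Sema3c that was left in pericyte-like cells. Sema3f, Ephb4 and Robo4 were 6.42-fold (5.88 to 7.02), 8.15-fold (7.53 to 8.85) and 9.48-fold (8.63 to 10.4) higher.

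Robo4 was not at 0 in pericyte-like cells, which had 46.5 and 29.2 CPM in Mural1 and Mural2. Reads lay in 10 of the 70 cells, of which 2 also held a read of the endothelial marker Cldn5, and 3 of all 70 cells held one. Over the list of 10 endothelial markers, the summed level was 29133 CPM in general capillary-like cells (7030.3 to 53496 CPM over cells), against 629 CPM in pericyte-like cells (0 to 2618 CPM), with Emcn at 0. Smooth muscle-like cells, with 345 CPM over that list, had 0.456 CPM of Robo4. The part of endothelial RNA in the pericyte-like level was not tested.

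The receptors Plxnb1 and Plxnb2 passed on the pericyte side. Plxnb1 had 4.58, 5.69 and 6.95 CPM in EC1, EC2 and EC3 in general capillary-like cells, against 238 and 198 CPM in Mural1 and Mural2 in pericyte-like cells, so it was 37.6-fold (34.6 to 40.8) lower in general capillary-like cells. Plxnb2 had 45.6, 45.3 and 45.2 CPM in EC1, EC2 and EC3 in general capillary-like cells, against 390.2 and 163 CPM in Mural1 and Mural2 in pericyte-like cells. It was 5.65-fold (5.41 to 5.91) lower in general capillary-like cells, by 3.59 without Mural1, which misses the rule, and by 8.57 without Mural2. Epha2 was on both sides of the capillary wall, with 74.2 CPM (69.4 to 79.2) in pericyte-like cells. Low levels led by pericyte-like cells were those of Sema4g (42.6 CPM), Sema4a (32.9 CPM) and Sema5b (19.9 CPM), each in fewer than 25% of cells.

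Pericyte-like and smooth muscle-like cells were set against each other next, and the guidance genes that passed between them were all ligands. No marker list set smooth muscle of vessels apart from other smooth muscle, so that class may not be of vessels alone. Over smooth muscle-like cells, pericyte-like cells had 1 guidance gene as higher (1.98% of held-out genes) and 4 as lower (1.87%). Sema6d was the higher one, with 160.0 and 216 CPM in Mural1 and Mural2 in pericyte-like cells, against 10.5 and 17.1 CPM in Mural1 and Mural2 in smooth muscle-like cells, a difference of 12.6-fold (11.2 to 14.2). Slit3 had 33.8 and 25.5 CPM in Mural1 and Mural2 in pericyte-like cells, against 502 and 411 CPM in Mural1 and Mural2 in smooth muscle-like cells, 15.0-fold (13.5 to 16.8) lower. It had a read in 14.3% of pericyte-like and 97.1% of smooth muscle-like cells. Sema5a had 92.4 and 58.5 CPM in Mural1 and Mural2 in pericyte-like cells, against 691 and 329 CPM in Mural1 and Mural2 in smooth muscle-like cells, 5.86-fold (5.47 to 6.29) lower. Sema3b had 0 and 4.95 CPM in Mural1 and Mural2 in pericyte-like cells, against 91.1 and 75.2 CPM in Mural1 and Mural2 in smooth muscle-like cells, 27.5-fold (19.7 to 39.6) lower and 15.2 lower without Mural1. Sema3d had 0 and 20.7 CPM in Mural1 and Mural2 in pericyte-like cells, against 73.9 and 96.6 CPM in Mural1 and Mural2 in smooth muscle-like cells, 7.50-fold (6.33 to 8.94) lower and 4.67 lower without Mural1. For each of these 5 genes both sets gave the same order. Among the receptors Plxnb1 was 214 CPM (206 to 223) in pericyte-like and 113 CPM (109 to 118) in smooth muscle-like cells. Plxna1 had 189.6 and 103 CPM and Plxnd1 83.5 and 82.3 CPM in the same order, none of which passed.

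**Figure D5:**
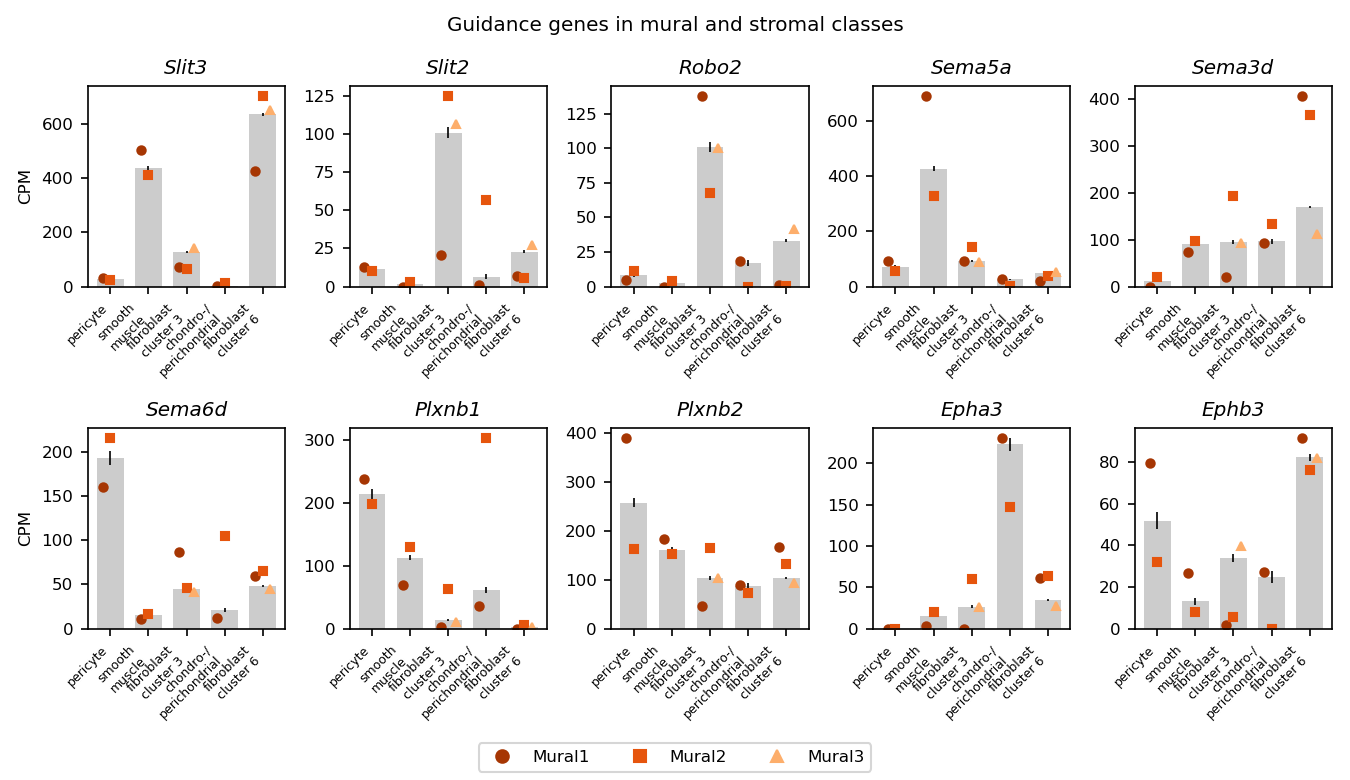
Level in CPM of 10 guidance genes in pericyte-like, smooth muscle-like, chondrocyte- or perichondrial-like cells and fibroblast-like clusters 3 and 6. Bars are summed reads of a class with its exact 95% counting interval, and points are the Mural1, Mural2 and Mural3 cells of that class. Sema6d, Plxnb1 and Plxnb2 are highest in pericyte-like cells, Sema5a in smooth muscle-like cells, Slit2 and Robo2 in cluster 3 and Slit3 in cluster 6.

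Smooth muscle-like cells over fibroblast-like cluster 6 gave 4 guidance genes as higher (1.7% of held-out genes) and 2 as lower (1.58%). Plxnb1 was 35.8-fold (32.0 to 40.2) higher, Plxnd1 5.53-fold (5.16 to 5.92) and Sema3f 9.38-fold (8.64 to 10.2). Sema3f in cluster 6 differed by set, with 1.88, 28.8 and 5.83 CPM in Mural1, Mural2 and Mural3, and its fold was 4.55 without Mural3. Sema5a was 8.65-fold (8.36 to 8.95) higher, and 13.5 without Mural3. Efna5 was 27.4-fold (20.2 to 38.2) lower in smooth muscle-like cells and Ephb3 6.29-fold (5.55 to 7.14) lower, or 10.1 without Mural1. Slit3, near 435 CPM in smooth muscle-like cells and 634 CPM in cluster 6, did not pass. Some receptors reached their highest level in smooth muscle-like cells at low values, namely Epha1 with 47.1 CPM, Ephb6 with 29.5 CPM and Epha7 with 16.7 CPM, as did the ligand Sema6c with 14.1 CPM. Of the exon bases of Epha1, 236 overlap Zyx.

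General capillary-like cells over cluster 6 gave 11 genes as higher (2.25%) and 5 as lower (2.54%). The higher ones were Efna1, Efnb1, Efnb2, Ephb4, Plxna1, Plxnd1, Robo4, Sema3c, Sema3f, Sema6a and Sema6d. The lower ones were Efna5, Ephb3, Sema3b, Sema3d and Slit3. Sema3c, with 119 CPM in cluster 6, kept a 19.8-fold (19.5 to 20.2) difference, and Slit3 was 44.1-fold (42.1 to 46.2) lower in general capillary-like cells. Plxnd1 missed the rule under TMM (3.87) and median-ratio factors (3.89).

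The 2 fibroblast-like clusters differed in their Slits. Over cluster 6, cluster 3 had 1 guidance gene as higher (0.456% of held-out genes) and 2 as lower (0.246%). Slit2 had 21.1, 125 and 107 CPM in Mural1, Mural2 and Mural3 in cluster 3, against 7.23, 5.57 and 27.4 CPM in Mural1, Mural2 and Mural3 in cluster 6. The lowest cluster 3 value lay below the highest cluster 6 value, and the difference of 4.39-fold (4.16 to 4.62) became 3.90 without Mural2, 3.84 under TMM and 3.92 under median-ratio factors, all short of the rule. Slit3 had 71.3, 63.3 and 141 CPM in Mural1, Mural2 and Mural3 in cluster 3, against 425, 703 and 649 CPM in Mural1, Mural2 and Mural3 in cluster 6. Here all 3 sets of cluster 3 lay below all 3 of cluster 6, and Slit3 was 4.93-fold (4.77 to 5.09) lower, but 3.12 lower, short of the rule, with other genes held out of the clustering. Sema3b was 4.23-fold (3.90 to 4.58) lower in cluster 3, and 3.78 lower without Mural2. It also missed the rule at Leiden resolution 2 (3.55), with other genes held out (1.77), with the mean of the cells' own CPM and with the authors' scores (both 3.85).

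The Slit receptor Robo2 had 138, 67.8 and 100.4 CPM in Mural1, Mural2 and Mural3 in cluster 3, against 1.03, 0.452 and 41.8 CPM in Mural1, Mural2 and Mural3 in cluster 6. All cluster 3 values were higher, though the summed levels of 101 and 33.1 CPM did not reach a 4-fold difference. Robo1 had 26.8 CPM in cluster 3 and 17.6 CPM in cluster 6. Ephb2 had 20.2 CPM in either cluster, and Ephb3 33.8 CPM in cluster 3 and 82.2 CPM in cluster 6. Lower levels led by cluster 3 were those of Sema4b (30.4 CPM), Plxna3 (24.8 CPM) and Efna2 (11.6 CPM). The cluster 6 level of Sema3d varied by set, with 407, 365 and 113 CPM in Mural1, Mural2 and Mural3, and Mural3 cells lay lowest.

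Chondrocyte- or perichondrial-like cells over cluster 6 gave 4 guidance genes as higher (1.44%), all of them receptors, and 2 ligands as lower (1.49%). Epha3, a receptor of A-type ephrins, had 231 and 147 CPM in Mural1 and Mural2 in chondrocyte- or perichondrial-like cells, against 61.1, 64.2 and 26.9 CPM in Mural1, Mural2 and Mural3 in cluster 6. Both values lay above all of cluster 6, with a difference of 6.46-fold (6.16 to 6.78), which was 3.54 without Mural3 and then missed the rule. Plxna4 was 9.71-fold (8.77 to 10.7) higher, and 4.25 without Mural3. Plxnb1 was 19.4-fold (17.1 to 22.0) higher. Without Mural2 it was still 12.8-fold higher but missed the level minimum, at 36.3 CPM. Plxna2 was 4.69-fold (4.32 to 5.10) higher, and it missed the rule without the doublet-like cells (3.94). Without Mural2, at 4.14-fold and 59.2 CPM, it missed on the share of cells. Slit3 had 2.39 and 14.4 CPM in Mural1 and Mural2 in chondrocyte- or perichondrial-like cells and was 181-fold (136 to 246) lower than in cluster 6. Sema3c was 10.2-fold (8.71 to 12.0) lower, by 23.3 without Mural2 and 18.2 without the doublet-like cells. Sema3e had its highest level among named classes here, at 17.9 CPM (15.7 to 20.3), next to 17.6 CPM (16.1 to 19.2) in cluster 3, with a read in 2 of 44 and 6 of 84 cells.

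A wider list of 65 genes held co-receptors, netrins with their receptors and intracellular partners of these families. In Cldn5-eGFP cells over Mural1 and Mural2, 4 of the 65 passed as higher (1.59% of all genes) and 4 as lower (2.67%). Those with the largest folds were, as higher, Arhgef15 (45.2-fold (42.7 to 47.8)), an exchange factor that acts with Eph receptors and Srgap1 (8.84-fold (8.32 to 9.40)), a Robo partner, and as lower Neo1, Rnd3, Flrt2 and Enah, by 6.07-fold (5.75 to 6.41) for Enah to 13.3-fold (12.4 to 14.3) for Neo1. Over Mural3 there were 4 as higher (2.03% of all genes), led by Arhgef15, Sdc3 and Srgap1, and 4 as lower (2.57%), led by Unc5c, Neo1 and Flrt2. Over Mural3, Mural1 and Mural2 had 3 as higher (0.747%), Sdc3, Mical2 and Vasp, and none as lower (0.146%).

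The neuropilins divided the endothelial classes. Nrp1, which binds Sema3a, was 1233-fold (598 to 3066) lower in lymphatic-like cells than in general capillary-like cells, and Nrp2, which binds Sema3f, 184-fold (170.5 to 199) higher. Unc5b and Mical3 also passed as higher in lymphatic-like cells and Arhgef12 and Arhgef15 as lower, which made 3 of the 65 in either direction (1.55% and 1.33% of held-out genes). In aerocyte-like cells over general capillary-like cells, Dpysl5 was 56.9-fold (51.4 to 63.1) higher and the ligand Ntn1 43.7-fold (37.4 to 51.2) lower, 1 of the 65 each (0.538% and 0.447%). Over pericyte-like cells, general capillary-like cells had 4 of the 65 as higher (1.54%), led by Ntn1, Arhgef15 and Srgap1, and 6 as lower (2.16%), led by Nck2, Nrp2 and Vasp. Pericyte-like cells over smooth muscle-like cells gave 5 as higher (1.98%), led by Nrp2 (147-fold (91.4 to 253)) and Unc5b (36.6-fold (29.0 to 46.8)), and 6 as lower (1.87%). The lower ones were led by Ntn1, which had no read in pericyte-like cells (at least 294-fold), Unc5c (159-fold (68.1 to 491)), Enah (136-fold (83.4 to 237)) and Dpysl3 (39.4-fold (34.8 to 44.9)). Cluster 3 over cluster 6 gave 3 as higher (0.456%), Nrp2, Gpc1 and Enah, and none as lower (0.246%). Chondrocyte- or perichondrial-like cells over cluster 6 gave 5 as higher (1.44%), led by Gpc1 (28.9-fold (27.1 to 30.7)), and 2 as lower (1.49%), Nrp1 and Ntn1.

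Summed by family, the semaphorins took 1956 CPM in aerocyte-like, 1533 CPM in lymphatic-like and 3354 CPM in general capillary-like cells, where Sema3c made up 70.2% of the sum. In the other named classes the semaphorin sum ran between 309 CPM in chondrocyte- or perichondrial-like cells and 807 CPM in smooth muscle-like cells. The plexin sum was 1105 CPM in aerocyte-like, 497 CPM in lymphatic-like and 897 CPM in general capillary-like cells, 756 CPM in pericyte-like and 526 CPM in smooth muscle-like cells. The lymphatic-like sum thus lay below those of pericyte-like and smooth muscle-like cells. The Slit sum was at most 18.2 CPM in an endothelial class, 437 CPM in smooth muscle-like cells and 658 CPM in cluster 6. Robo genes summed to 403 CPM in aerocyte-like, 441 CPM in lymphatic-like and 349 CPM in general capillary-like cells, nearly all of it Robo4, and to 128 CPM in cluster 3, of which 78.8% was Robo2. All 58 genes together took 0.652% of the reads of general capillary-like cells, 0.426% of aerocyte-like and 0.377% of lymphatic-like reads, and between 0.128% and 0.200% in the other named classes.

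At equal depth a cell held reads of only a few guidance genes. After thinning to 50000 reads the median was 9 genes in aerocyte-like cells (range 1 to 15), 7 in lymphatic-like cells (3 to 13) and 8 in general capillary-like cells (1 to 16). It was 6 in pericyte-like cells (0 to 14), 9 in smooth muscle-like cells (2 to 17), and 8 in each fibroblast-like cluster and in chondrocyte- or perichondrial-like cells. General capillary-like cells held fewer genes of any kind, with a median of 1581 against 3210.0 in cluster 6, so the guidance genes were a larger share of the genes seen, 0.506% against 0.249%.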

How the data were processed

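Per the submitters' processing notes, the authors used STAR 2.4.2a and the mm10 build. How reads were assigned to genes and cells chosen is not given in the sources used here. They deposited read counts per gene and cell, used throughout, and a table of scores. Each of the 33009792 deposited scores lay within 1 of a cell's reads scaled to a total of 500000, and they served as an alternative. No cell was removed, 0 pairs of cells had identical counts, and depth is given with the results.

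Members and lists were chosen with earlier results of these data known. Populations were compared over all genes, and classes over 10972 held-out genes. Clusters came from scanpy 1.11.5 (2000 variable genes, 30 components, 15 neighbours, Leiden resolution 1, seed 1), without the guidance genes, the wider list and a randomly drawn part of the other genes that are no markers. A cluster took, of the lists of the 7 named types and not the general endothelial one, that with the largest mean share of markers detected per cell, at 40% or more, and clusters with 50% of epithelial or leukocyte markers stayed unnamed, with both limits set after the data were seen, as was the pooling of Mural1 and Mural2. Fibroblast-like clusters were compared by number, because the leading genes of either cluster held none of the fibroblast markers. No doublet caller was run, and doublet-like cells had reads of at least 5 endothelial and at least 5 markers from 1 of the pericyte, smooth muscle and fibroblast lists. A side under 3 reads was set to 3 for the size rule. Intervals are exact at 95%, Poisson for levels and conditional for ratios, and reads without molecular identifiers are not independent molecules. Every gene with at least 10 CPM in a named class is named, and of the wider list up to 6 genes per comparison, by fold. Exon lengths and overlaps are from GENCODE on GRCm38. Overlaps are given above for Plxna1 and Epha1, but other genes have them too. Among them are Sema4c (334 bases, with D430040D24Rik) and Plxnb1 (257 bases, with Gm7628). Alternatives used factors from edgeR 4.0.16 and DESeq2 1.42.0. The size rule was tested on simulated counts without added dropout of genes from cells, so that test does not show how the share minimum works.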

Additional observations from a re-analysis of the deposited data

Results flagged for a closer look

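Unnamed cluster 4, whose 169 cells entered no class comparison, held 4 semaphorins above every named class, with counting intervals that did not overlap the next highest. Sema4a, a class 4 semaphorin known from immune cells, had 78.1 CPM (75.5 to 80.7) and a read in 55.0% of cells, against 32.9 CPM (29.8 to 36.3) in pericyte-like cells. Sema4d, the ligand of Plxnb1, had 39.6 CPM (37.8 to 41.5), against 5.67 CPM (4.47 to 7.10) in chondrocyte- or perichondrial-like cells. Sema4f had 26.9 CPM (25.4 to 28.5), against 4.48 CPM (3.42 to 5.76) in the same class. Sema3e, the ligand of Plxnd1, had 26.5 CPM (25.0 to 28.0) and a read in 30.2% of cells, against 17.9 CPM (15.7 to 20.3) in chondrocyte- or perichondrial-like cells. These cells also carried the markers of other types: the 11 epithelial markers summed to 89404 CPM and the 9 leukocyte markers to 22335 CPM, none of them at 0, against at most 3449 CPM and 2123 CPM in a named class. Of the 169 cells, 46 were doublet-like. The part of epithelial or leukocyte RNA in the 4 levels was not tested.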

How the results depend on the processing

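With 1 sample per population and reads without molecular identifiers, counting intervals give the only error. Depth limits the low genes, and a level near the floor of 3 reads is not a measured absence. For the 89 gene results that passed, alternatives that only relax the rule or leave a fold as it stood could not end a call and are not counted. Of the 918 other recomputed folds 889 passed, 29 missed the rule and 0 changed direction, and 26 of the 89 missed a fold of at least 8. The median log2 difference of all genes moved under median-ratio factors by -0.47 for Cldn5-eGFP cells over Mural3, -0.43 for Mural1 and Mural2 over Mural3 and 0.29 for aerocyte-like over general capillary-like cells. Guidance genes passing between Mural1 with Mural2 and Mural3 numbered 1, and 2 under TMM or median-ratio factors, with a minimum of 10 CPM or none, with the mean of the cells' own CPM, with the authors' score table and without unnamed cluster 4, which was chosen after seeing the data. At a fold of at least 2 they numbered 3 and at 8 they numbered 0. At a fold of at least 8, the 15 of Cldn5-eGFP cells over Mural1 and Mural2 became 9, the 5 of pericyte-like over smooth muscle-like cells became 3 and the 3 of aerocyte-like over general capillary-like cells became 1, or 6 at a fold of at least 2. Cluster 3 over cluster 6 gave 3, with 8 at a fold of at least 2, 0 at 8 and between 1 and 3 with a column set left out, the 1 being without Mural2. General capillary-like over pericyte-like cells gave 9, and 15 with no minimum share of cells. The wider list gave 8 for Cldn5-eGFP cells over Mural1 and Mural2, with 14 at a fold of at least 2 and 4 at 8. It gave 13 over Mural3 at a fold of at least 2, against 8, and between the mural sides 5 with 10 CPM or no minimum and 9 at a fold of at least 2, against 3. Leaving out an EC set left under 20 lymphatic-like cells, so that comparison could not be called, and those of its folds that moved by over 1.5 times are given without a call. Nor could others be called where a set held most of a class, or where arterial marking asked for at least 4 markers. The cause of these changes was not tested. No paired analysis was possible because no result comes from a test, each population is 1 sample, and no label ties the number of an EC set to that of a Mural set. For classes drawn from the same sets, several genes are given set by set.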
